A study of Arabidopsis thaliana with 16 samples.

Results

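The genes described here are the 3 cold-induced transcription factors CBF1 (AT4G25490), CBF2 (AT4G25470) and CBF3 (AT4G25480) and 7 genes of the COR group that they control, COR15A (AT2G42540), COR15B (AT2G42530), RD29A (AT5G52310), RD29B (AT5G52300), COR47 (AT1G20440), ERD10 (AT1G20450) and KIN1 (AT5G15960). The 10 genes were selected by their TAIR10 identifiers, from a list drawn up with results of these data known. Their treated and mock levels are therefore given as a description and support nothing. A gene took its value from the assembled locus on its strand with the longest exonic overlap, provided that the overlap covered at least 50% of the gene or of the locus. All 10 genes had a locus among the 22818 loci of the UV-C table, and 8 of 10 had one among the 20880 loci of the zeocin table, where CBF1 and CBF3 had none. RD29B had too few counts to pass edgeR's filter on low counts in either table, so 9 of the genes entered the UV-C fit and 7 the zeocin fit.

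CBF proteins are AP2-domain activators that are switched on within the first hours of cold. They bind the CRT/DRE element, whose core is CCGAC, in the promoters of COR genes, and the COR proteins protect membranes and proteins during freezing and water loss. RD29A and RD29B are also induced by abscisic acid through a second element, the ABRE. Outside the cold the CBF genes are expressed at low levels that follow the circadian clock.

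All libraries came from whole Col-0 seedlings of Arabidopsis thaliana, 15 days old and grown in vitro. In the UV-C experiment, 3 libraries were from seedlings given UV-C (8 kJ/m2) and 3 from their mock seedlings. In the zeocin experiment, 5 libraries were from seedlings kept in zeocin (200 microg/ml, 3 h), a drug related to bleomycin that causes double-strand breaks in DNA, and 5 from their own mock seedlings. The time between UV-C and harvest and the hour of harvest are not given in the sources used here, nor is it said that replicates were separate cultures, so the spread between libraries may be technical. In such whole-seedling RNA, fewer cells of a type and less RNA per cell cannot be told apart.

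The UV-C libraries held 27973871 to 30014943 counted fragments and their mock libraries 32161555 to 37507136, while the zeocin libraries held 31185080 to 44536500 and their mock libraries 31329853 to 41488445. Plastid loci took 38.6% ± 1.81 of the counts in UV-C libraries and 45.3% ± 1.33 in their mock libraries (SD, n = 3 each). After UV-C 4 of 4 shoot markers and 2 of 4 root markers fell, where 30.9% of all loci did. CASP1 and SHR, the other root markers, were not called, at log2 fold changes of -0.66 (SE 0.48) and 0.40 (SE 0.17). The shoot markers summed to 11674 to 12263 CPM (counts scaled to library size) in UV-C libraries and 17281 to 18699 CPM in mock libraries, and the root markers to 13.5 to 25.6 CPM in UV-C libraries and 25.7 to 47.7 CPM in mock libraries. After zeocin 4 of 4 root markers and 1 of 4 shoot markers fell, where 12.0% of all loci did. The shoot marker was GLK1, whose call was lost in 7 of 10 fits that left out a library. The root markers summed to 65.9 to 81.2 CPM in zeocin libraries and 176 to 242 CPM in mock libraries, and the shoot markers to 13316 to 17417 CPM in zeocin libraries and 14739 to 20090 CPM in mock libraries. The seed gene CRA1, in the zeocin table alone, was at 0 to 13.1 CPM in zeocin libraries and 0 to 4.42 CPM in mock libraries. The part of plastid share and tissue balance in the results below was not tested.

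Sequence upstream of the assembled starts is shown first because CBF proteins act on COR genes through a promoter element. In the 300 bases upstream of the assembled start, CCGAC was searched on both strands, as was ACGTG, the core of the ABRE. For RD29B, whose locus lacks the start of the gene, the annotated start was used. The other assembled starts also lay inside the annotated genes. Counted from the annotated starts, the cores printed below for COR15A, COR15B, COR47, ERD10, KIN1 and KIN2 lie inside the gene. So does the RD29A core nearest the assembled start. CCGAC was present upstream of 7 of 7 COR genes and 0 of 3 CBF genes, and in 15.6% of the 21248 windows of the same length at all loci that held 1 gene. ACGTG was present upstream of 5 of 7 COR genes and 3 of 3 CBF genes, and in 28.0% of those windows. The 2 motifs share no bases in any of the printed windows. A match describes letters only and does not show that a factor was bound. The sites below are TAIR10 sequence from RefSeq on the strand of the gene, 5′ to 3′, with CCGAC in capitals.

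COR15A (chr2:17712220-17712240, minus strand): tttcatggCCGACctgctttt
COR15B (chr2:17710126-17710146, minus strand): cttgatggCCGACctcttttt
RD29B (chr5:21236877-21236897, plus strand): aacgtggaCCGACtaaaacta
COR47 (chr1:7085920-7085940, minus strand): ttcatctaCCGACttcaagaa
ERD10 (chr1:7089365-7089393, minus strand): ttcatccaCCGACCGACCGACgtaaaaga
KIN1 (chr5:5209806-5209826, plus strand): aatagctaCCGACataaggca
KIN2 (chr5:5211773-5211793, plus strand): aaaagctaCCGACataaggca

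ERD10 held 3 overlapping cores in 1 run, and RD29A held 4 separate ones. At all loci 2.30% of the windows held 2 or more. KIN2 (AT5G15970), the tandem neighbour of KIN1, is shown because it fell after UV-C while KIN1 was not called; the difference between these 2 genes was not tested. The whole 300 bases before the annotated start are given for RD29A, which fell after UV-C, and for CBF2, which rose. Capitals mark CCGAC in the RD29A sequence, where 3 of its cores lie, and a palindromic CACGTG in that of CBF2, which holds ACGTG on both strands.

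RD29A (chr5:21240417-21240716, plus strand): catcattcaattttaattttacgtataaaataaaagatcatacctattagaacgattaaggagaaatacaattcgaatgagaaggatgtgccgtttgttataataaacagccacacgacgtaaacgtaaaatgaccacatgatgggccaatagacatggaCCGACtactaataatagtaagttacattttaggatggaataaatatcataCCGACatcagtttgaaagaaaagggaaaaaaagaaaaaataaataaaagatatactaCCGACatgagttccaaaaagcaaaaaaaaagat
CBF2 (chr4:13016236-13016535, minus strand): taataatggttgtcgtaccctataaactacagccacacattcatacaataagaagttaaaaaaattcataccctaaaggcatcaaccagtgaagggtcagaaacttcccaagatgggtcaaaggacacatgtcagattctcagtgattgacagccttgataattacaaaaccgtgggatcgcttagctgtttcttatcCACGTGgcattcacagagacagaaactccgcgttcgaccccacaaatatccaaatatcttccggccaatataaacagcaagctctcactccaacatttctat

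**Figure D1:**
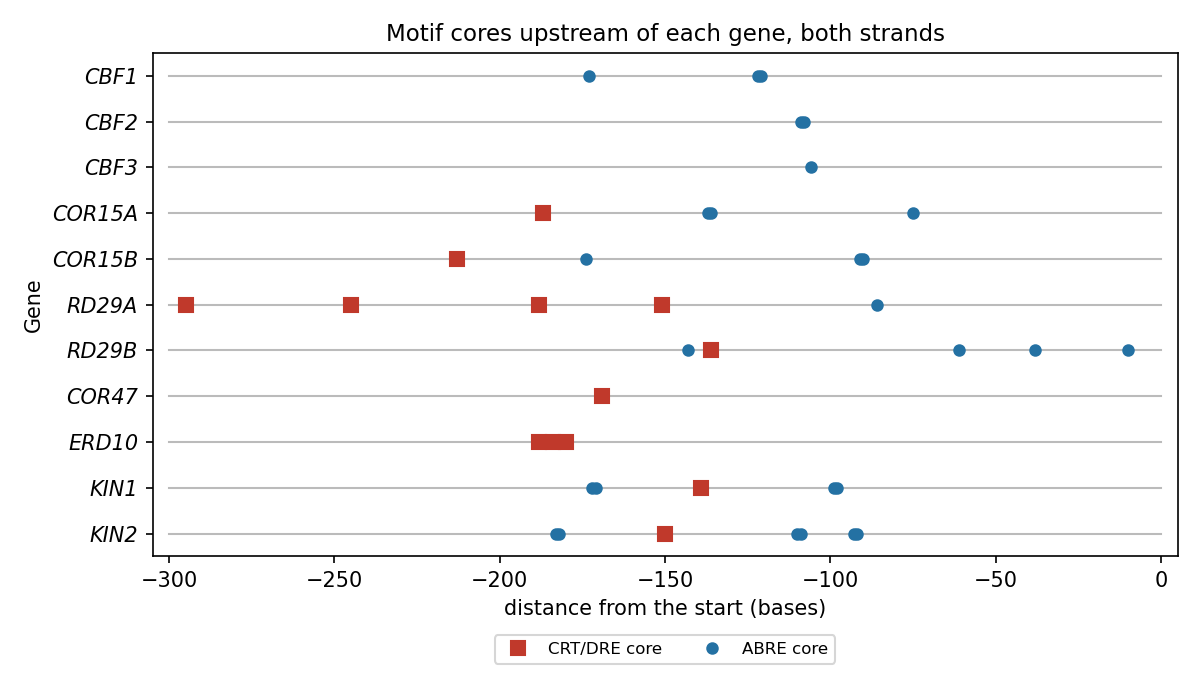
Position of each CRT/DRE core (squares) and ABRE core (circles) in the 300 bases upstream of the start used, for the 10 genes and KIN2. Distances are in bases from that start. It is the assembled start, which lies inside the annotated gene, except for RD29B, where it is the annotated start. The 7 COR genes each carry at least 1 CRT/DRE core and the 3 CBF genes carry 0.

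After UV-C, 5 COR genes fell and CBF2 rose, out of 9 genes tested. COR15A, COR15B and RD29A were at 2.05% to 3.51% of their mock level, and the dehydrin genes COR47 and ERD10 at 22.8% and 31.4%. Calls were taken at an adjusted p below 0.05 in edgeR's quasi-likelihood test over all loci. By the same rule 30.9% of all 19587 loci tested fell after UV-C and 33.6% rose, and since the genes were chosen with these results known, nothing is read from their count. After zeocin, 0 of 7 genes tested were called, where 27.0% of 19447 loci were. DESeq2 also called 0 of 7, and edgeR's unadjusted p was below 0.05 for 0 of 7.

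**Figure D2:**
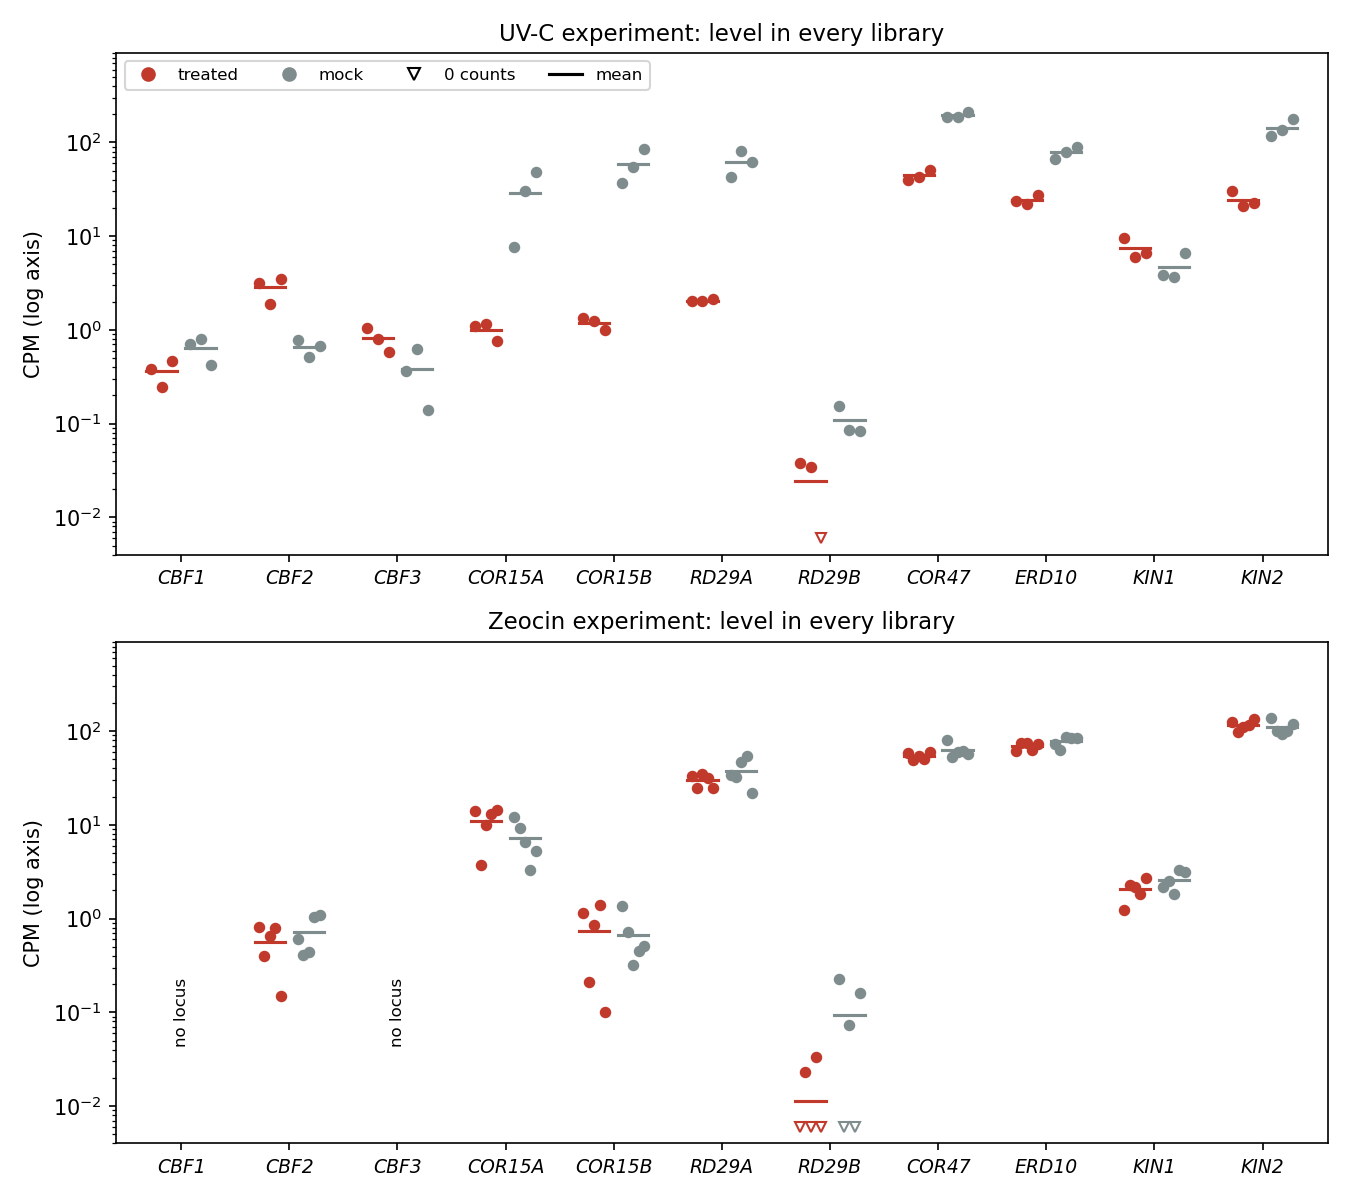
Level in CPM, on a log axis, of each gene in every library of the UV-C experiment (above) and the zeocin experiment (below), treated libraries left of mock libraries. Points are libraries, lines are group means, triangles are libraries with 0 counts. After UV-C the treated and mock points of COR15A, COR15B, RD29A, RD29B, COR47, ERD10, KIN2 and CBF2 are apart. RD29B had 0 to 6 fragments per library there, and the share of all loci with groups apart was not counted. In the zeocin experiment the groups of every gene drawn overlap.

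The CBF genes lie in tandem on chromosome 4, in the order CBF2 (chr4:13015250-13016235), CBF3 (chr4:13018010-13019400) and CBF1 (chr4:13021780-13022996), all on the minus strand and each counted as 1 exon. Their coding sequences were 85.0% to 86.9% identical, and at most 4.89% of the 50-base words of one were found in another. Such words were shared by CBF1 and CBF2 and by no other pair. Fragments that map to several places were not counted, and how many were lost from these genes was not examined.

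CBF2 had 83, 55 and 92 fragments in the UV-C libraries, against 30, 18 and 24 in their mock libraries. As levels these were 3.14, 1.91 and 3.53 CPM in UV-C libraries and 0.780, 0.518 and 0.669 CPM in mock libraries. Every UV-C library was above every mock library, and CBF2 rose 4.31-fold (log2 fold change 2.11 ± 0.28, where ± after a log2 value is its SE here and below).

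CBF3 had 28, 23 and 15 fragments in UV-C libraries, against 14, 22 and 5 in mock libraries. The levels overlapped, at 1.06, 0.799 and 0.576 CPM in UV-C libraries and 0.364, 0.633 and 0.139 CPM in mock libraries. The log2 fold change of CBF3 was 1.10 ± 0.46 and was not called. Without mock library 2, the highest mock value, it was 1.65 and was called.

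CBF1 had 10, 7 and 12 fragments in UV-C libraries, against 27, 28 and 15 in mock libraries. Its levels were 0.378, 0.243 and 0.461 CPM in UV-C libraries and 0.702, 0.805 and 0.418 CPM in mock libraries, so that 1 UV-C library overlapped the mock range. The log2 fold change of CBF1 was -0.83 ± 0.38 and was not called, although without mock library 3 it was -1.07 and was called. All 3 estimates rest on few fragments, and CBF2 was the one CBF gene called with all libraries included.

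COR15A and COR15B are a tandem pair on chromosome 2 that encode small proteins of the chloroplast stroma, where they shield membranes during freezing. Their coding sequences were 82.8% identical and shared no 50-base word. COR15B had 1.32, 1.25 and 0.998 CPM in UV-C libraries, against 36.6, 54.4 and 84.3 CPM in mock libraries. It averaged 1.19 ± 0.17 CPM after UV-C and 58.4 ± 24.1 CPM in mock seedlings (SD, n = 3 each), a log2 fold change of -5.61 ± 0.40. This was the largest change among the 9 genes tested, with no UV-C library near a mock library.

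COR15A had 1.10, 1.15 and 0.768 CPM in UV-C libraries, against 7.62, 30.3 and 48.7 CPM in mock libraries. The mock libraries differed 6.39-fold from lowest to highest, and mock library 1, the lowest, still lay above all UV-C libraries. COR15A fell by 4.83 on the log2 scale (SE 0.79). Without mock library 3, the highest, the log2 fold change was -4.24.

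RD29A and RD29B are a tandem pair on chromosome 5 that encode hydrophilic proteins made in drought and cold. RD29A had 2.04, 2.02 and 2.11 CPM in UV-C libraries, against 42.3, 81.0 and 62.3 CPM in mock libraries. The UV-C libraries were alike within a coefficient of variation of 2.41%, where the mock libraries had 31.2%. RD29A fell by 4.91 on the log2 scale (SE 0.28).

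RD29B was close to undetected. It had 1, 1 and 0 fragments in UV-C libraries, against 6, 3 and 3 in mock libraries, so that each UV-C library was below each mock library. The pooled ratio of UV-C to mock, scaled for library size, was 0.224 (exact 95% interval 0.0243 to 1.01, for counting error only). In the zeocin experiment it had 0, 1, 0, 1 and 0 fragments in zeocin libraries, against 8, 0, 3, 0 and 7 in mock libraries. The pooled ratio of zeocin to mock was 0.114 (exact 95% interval 0.0128 to 0.475, for counting error only). The zeocin and mock groups overlapped, and 3 of the 5 mock libraries held all of the mock fragments. The locus covered 24.7% of the annotated exons in the UV-C table and 16.6% in the zeocin table, and no fold change was fitted.

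COR47 and ERD10 are neighbouring genes on chromosome 1 that encode acidic dehydrins, proteins that keep other proteins and membranes hydrated. COR47 had 40.0, 43.3 and 50.5 CPM in UV-C libraries, against 186, 188 and 213 CPM in mock libraries. ERD10 had 23.9, 22.1 and 27.7 CPM in UV-C libraries, against 67.0, 79.8 and 88.5 CPM in mock libraries. Both pairs of groups lay well apart, and the replicates were closer together than for COR15A, with coefficients of variation between 7.57% and 13.8%. COR47 fell by 2.13 (SE 0.10) and ERD10 by 1.67 (SE 0.12) on the log2 scale.

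KIN1 and KIN2 are tandem genes on chromosome 5 for small alanine-rich proteins, with coding sequences of 201 bases that were 95.0% identical. Both had a CCGAC core in the printed sites. KIN1 had 9.65, 6.01 and 6.64 CPM in UV-C libraries, against 3.85, 3.65 and 6.66 CPM in mock libraries. Its groups overlapped through mock library 3, the log2 fold change was 0.65 ± 0.27, and it was not called. Without mock library 3 the value was 0.97 and without UV-C library 2 it was 0.78, and both were called.

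KIN2 had 30.2, 21.2 and 22.5 CPM in UV-C libraries, against 117, 137 and 176 CPM in mock libraries. Its groups were apart, and it fell by 2.54 (SE 0.20) on the log2 scale. Of the 50-base words of either coding sequence 5.92% occurred in the other. KIN1 was thus the one COR gene of the list that was tested and not called after UV-C, beside a near-identical neighbour that fell.

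**Figure D3:**
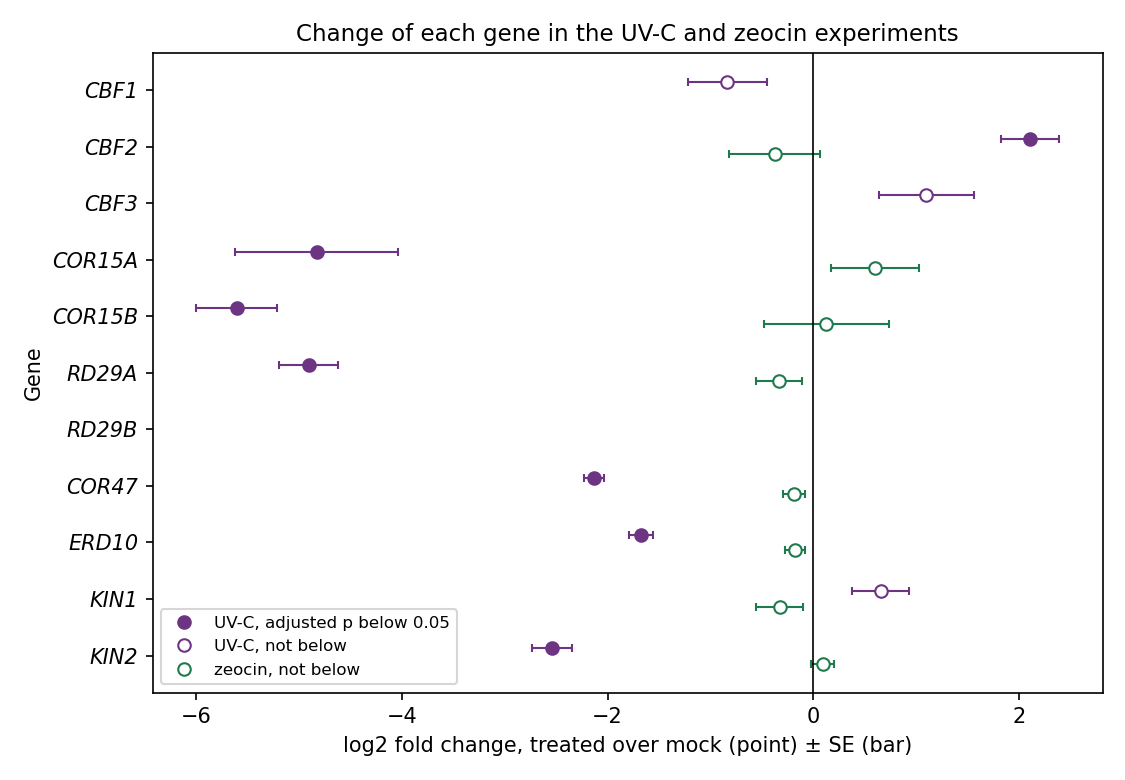
Log2 fold change of treated over mock seedlings, with its SE as a bar, for each gene in the UV-C experiment (purple) and the zeocin experiment (green). Filled points had an adjusted p below 0.05. In the UV-C experiment COR15A, COR15B and RD29A lie near -5, COR47, ERD10 and KIN2 between -1.67 and -2.54, and CBF2 at 2.11. In the zeocin experiment all values lie between -0.37 and 0.60.

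In the zeocin experiment CBF2 had 0.809, 0.397, 0.661, 0.793 and 0.151 CPM in zeocin libraries, against 0.603, 0.411, 0.443, 1.04 and 1.08 CPM in mock libraries. These ranges overlapped, and the log2 fold change was -0.37 ± 0.44. Per the file headers, transcripts needed a coverage of 10 to be kept in the zeocin assembly, against 1, or 2 where they had a single exon, in the UV-C assembly. CBF1 and CBF3 had no zeocin locus, so their response to zeocin was not measured here.

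COR15A had 14.2, 3.74, 9.86, 13.1 and 14.5 CPM in zeocin libraries, against 12.3, 9.19, 6.55, 3.32 and 5.31 CPM in mock libraries. The groups overlapped and the log2 fold change was 0.60 ± 0.43. COR15B ranged from 0.101 to 1.39 CPM in zeocin libraries and from 0.320 to 1.38 CPM in mock libraries, with a log2 fold change of 0.12 ± 0.61.

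RD29A had 33.6, 24.6, 35.1, 32.0 and 24.7 CPM in zeocin libraries, against 34.1, 32.6, 46.6, 54.4 and 21.7 CPM in mock libraries, a log2 fold change of -0.34 ± 0.22. The zeocin values lay inside the mock range. COR47 averaged 54.8 ± 4.56 CPM in zeocin libraries and 62.5 ± 10.5 CPM in mock libraries (SD, n = 5 each), a log2 fold change of -0.19 ± 0.11. ERD10 averaged 69.5 ± 6.53 CPM in zeocin libraries and 78.5 ± 10.2 CPM in mock libraries, a log2 fold change of -0.18 ± 0.10. The groups of both dehydrin genes overlapped. KIN1 averaged 2.06 ± 0.55 CPM in zeocin libraries and 2.59 ± 0.62 CPM in mock libraries, a log2 fold change of -0.33 ± 0.23. KIN2 stood at 0.09 ± 0.12.

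The difference between the responses, UV-C minus zeocin on the log2 scale, was taken from the interaction term of a joint fit. It was called for 7 of the 7 genes tested in both experiments, where 47.0% of 17145 genes were. The difference was -5.72 for COR15B, -5.43 for COR15A, -4.57 for RD29A, -1.94 for COR47, -1.50 for ERD10, 2.50 for CBF2 and 0.98 for KIN1. That of KIN1 was lost in 7 of 16 fits that each left out 1 library. The 2 experiments also differ in their mock seedlings and in the assembly they were counted on, and these cannot be told apart from the agent.

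Levels were also compared between the genes after division by locus length. The neighbour KIN2 stood above them all in mock seedlings of the UV-C experiment, at 290 ± 61.5 CPM per kb. In mock seedlings of the UV-C experiment COR47 was the highest of the 10 genes, at 176 ± 13.3 CPM per kb, followed by COR15B at 95.8 ± 39.5, ERD10 at 72.3 ± 9.99, COR15A at 41.9 ± 29.8, RD29A at 26.5 ± 8.28 and KIN1 at 13.1 ± 4.68 CPM per kb (SD, n = 3 each). The libraries of COR15B and ERD10 overlapped, as did those of ERD10 and COR15A, COR15A and RD29A, and RD29A and KIN1. The CBF genes lay far below, between 0.384 and 0.701 CPM per kb, with ranges that overlapped from each to the next.

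After UV-C the order of the means was different. COR47 stayed first among the 10 genes at 40.2 ± 4.85 CPM per kb, before ERD10 at 22.7 ± 2.61 and KIN1 at 20.6 ± 5.40 CPM per kb, the last 2 overlapping. CBF2, at 3.03 ± 0.90 CPM per kb, then stood above COR15B at 1.95 ± 0.28, COR15A at 1.46 ± 0.30 and RD29A at 0.882 ± 0.021 CPM per kb. The libraries of CBF2 and COR15B overlapped, as did those of COR15B and COR15A. The 7 COR genes together took 75.9 to 88.7 CPM in UV-C libraries and 344 to 503 CPM in mock libraries. The 3 CBF genes together took 2.95 to 4.58 CPM in UV-C libraries and 1.23 to 1.96 CPM in mock libraries.

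The mock seedlings of the 2 experiments stood at different COR levels. COR15B was at 1.70 ± 1.05 CPM per kb in zeocin mock libraries (SD, n = 5), where the UV-C mock libraries had the 95.8 given above. COR47 was at 70.4 ± 11.8 and COR15A at 10.8 ± 5.11 CPM per kb in zeocin mock libraries, while ERD10, at 63.7 ± 8.27 CPM per kb, was near its UV-C mock level. The tables were counted on separate assemblies with loci of different length, so these values are set side by side without a test.

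Of 17 tested genes that act on CBF expression, 4 rose and 7 fell after UV-C (11 under upper quartile scaling), where 33.6% of all loci rose and 30.9% fell. The median log2 fold change was -0.25, against 0.00 over all loci tested. MYB15, a repressor of CBF genes, was at 92.0 ± 6.77 CPM in UV-C libraries and 0.576 ± 0.119 CPM in mock libraries, a log2 fold change of 7.31 ± 0.13 (edgeR, adjusted p = 1.78e-10). JAZ1, a jasmonate repressor that also binds the ICE activators, rose by 4.07 ± 0.16. PIF4, a light-regulated factor that lowers CBF expression in long days, fell by 1.43 ± 0.12 and ICE2, an activator of CBF genes, fell by 1.38 ± 0.09. After zeocin 4 of 17 rose (2 without zeocin library 2) and 2 fell, where 15.0% of all loci rose and 12.0% fell, with a median of 0.03, against -0.02 over all loci. CAMTA3, a calmodulin-binding activator of CBF2, rose by 1.03 ± 0.09 after zeocin (adjusted p = 9.37e-07), and MPK3, a kinase that acts on ICE1, by 0.66 ± 0.12. PIF7, which represses CBF genes in warm long days, fell by 0.47 ± 0.11 after zeocin. These genes were also called after UV-C, where CAMTA3 rose by 0.89 ± 0.10, MPK3 rose by 1.14 ± 0.12 and PIF7 fell by 0.34 ± 0.11.

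Of 8 clock genes that act on the CBF genes, 4 rose and 4 fell after UV-C, where 64.4% of all loci were called in either direction. LHY and CCA1, morning factors that bind CBF promoters, were at 39.9 ± 7.61 and 41.1 ± 5.84 CPM in UV-C libraries, against 0.50 ± 0.15 and 1.35 ± 0.30 CPM in mock libraries. Their log2 fold changes were 6.32 ± 0.23 and 4.93 ± 0.17, and those of RVE8 and PRR9, also expressed in the morning, were 4.42 ± 0.24 and 3.91 ± 0.22. The evening genes TOC1 and LUX fell by 1.46 ± 0.08 and 1.20 ± 0.09. In the zeocin experiment 1 of 8 was called, LHY, which rose by 1.02 ± 0.12, where 27.0% of all loci were called. The mock seedlings of the experiments also stood at different levels of clock genes. In zeocin mock libraries LHY and CCA1 were at 20.8 ± 3.92 and 15.5 ± 2.59 CPM. TOC1 was at 35.5 ± 4.87 CPM in zeocin mock libraries and 77.8 ± 4.54 CPM in UV-C mock libraries. PRR7, which also fell after UV-C, was at 82.0 ± 20.4 and 52.2 ± 5.67 CPM in the same groups. The hour of harvest is not given, and its part in these levels was not tested. The part of the clock genes in the CBF and COR levels was not tested.

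Of 5 other DREB-type factors tested 4 rose after UV-C and 0 fell, where 33.6% of all loci rose and 30.9% fell, with a median log2 fold change of 2.66. DEAR1, a small DREB protein with a repressor motif, rose by 3.03 ± 0.14, and the drought and heat factors DREB2B and DREB2C rose by 2.92 ± 0.13 and 2.66 ± 0.15. DREB2A rose by 1.05 ± 0.30, with a call that was lost without UV-C library 3. After zeocin 2 of 5 rose, where 15.0% of all loci did, DREB2C by 0.94 ± 0.23 and DEAR1 by 0.88 ± 0.18. CBF4 (AT5G51990) had no locus in either table.

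The transcription factors known to be induced with the CBF genes in the first hours of cold, described here as first-wave factors, rose in 10 of 12 cases after UV-C and fell in 1, with a median of 2.44. Over all loci 33.6% rose and 30.9% fell. ZAT12, a zinc finger factor of many stresses, rose by 5.78 ± 0.17, ZAT6 by 3.17 ± 0.13 and ERF6 by 2.87 ± 0.23. ZAT10 rose by 4.52 ± 0.11, from a locus that also holds a neighbouring gene. RAV1 fell by 1.18 ± 0.10. After zeocin 7 of 12 rose and 2 fell, where 15.0% of all loci rose and 12.0% fell, with a median of 1.06. ERF105 rose by 2.53 ± 0.20 and WRKY33 by 1.75 ± 0.24, while CRF2 fell by 1.53 ± 0.15 and HSFC1 by 1.17 ± 0.30. After UV-C ERF105 rose by 2.58 ± 0.21, WRKY33 by 2.40 ± 0.19 and CRF2 by 0.56 ± 0.15, and HSFC1 was not called.

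Other cold-induced genes outside the 10 fell in 9 of 14 cases after UV-C and rose in 4, where 30.9% of all loci fell and 33.6% rose, with a median of -1.70. COR413IM1, for a protein of the chloroplast inner envelope, was at 0.818 ± 0.277 CPM in UV-C libraries and 34.4 ± 5.99 CPM in mock libraries, a log2 fold change of -5.38 ± 0.22. COR28, which links the clock to freezing tolerance, fell by 3.24 ± 0.16 and COR413-PM1, for a plasma membrane protein, by 3.17 ± 0.08. The exceptions named are ELIP1, for a light-stress protein of thylakoids, which rose by 3.13 ± 0.45 (3.83 without mock library 1), and XERO2, for a dehydrin, which rose by 2.30 ± 0.17. After zeocin 1 of 13 was called by edgeR, where 27.0% of all loci were, and DESeq2 called 2 risen and 1 fallen.

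That gene was ERD14, an acidic dehydrin related to COR47 and ERD10. It was at 470 ± 47.9 CPM in zeocin libraries and 79.0 ± 5.61 CPM in mock libraries (SD, n = 5 each), a log2 fold change of 2.57 ± 0.10 (edgeR, adjusted p = 4.85e-11). After UV-C ERD14 was at 98.0 ± 12.7 CPM, against 186 ± 22.3 CPM in mock libraries, a log2 fold change of -0.92 ± 0.12. The difference between the responses of ERD14 was -3.49 ± 0.16 (adjusted p = 3.33e-11).

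Of 15 tested genes of the abscisic acid and drought response, 4 rose and 7 fell after UV-C, where 33.6% of all loci rose and 30.9% fell, with a median of -0.09. LEA7, for a protective protein of drying tissue, rose by 4.88 ± 0.55 (5.72 without mock library 2) at a mean of 0.922 CPM in UV-C libraries, against 0.028 CPM in mock libraries. ABI5, a factor that binds the ABRE, rose by 3.45 ± 0.22 and HAI1, a phosphatase induced by abscisic acid, by 2.87 ± 0.28. RAB18, a dehydrin often used as a marker of abscisic acid, fell by 2.80 ± 0.35. After zeocin 3 of 13 rose and 3 fell, where 15.0% of all loci rose and 12.0% fell, with a median of -0.14. ABI5 rose by 1.53 ± 0.35 and HAI1 by 1.32 ± 0.31, and NCED3, which makes a precursor of abscisic acid, fell by 1.44 ± 0.39. Their means were low, at 0.782, 2.11 and 0.692 CPM in zeocin libraries and 0.268, 0.840 and 1.86 CPM in mock libraries. The groups of HAI1 and NCED3 overlapped. ABF3 fell by 0.97 ± 0.17, at 3.78 CPM in zeocin libraries and 7.38 CPM in mock libraries, with its groups apart.

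**Figure D4:**
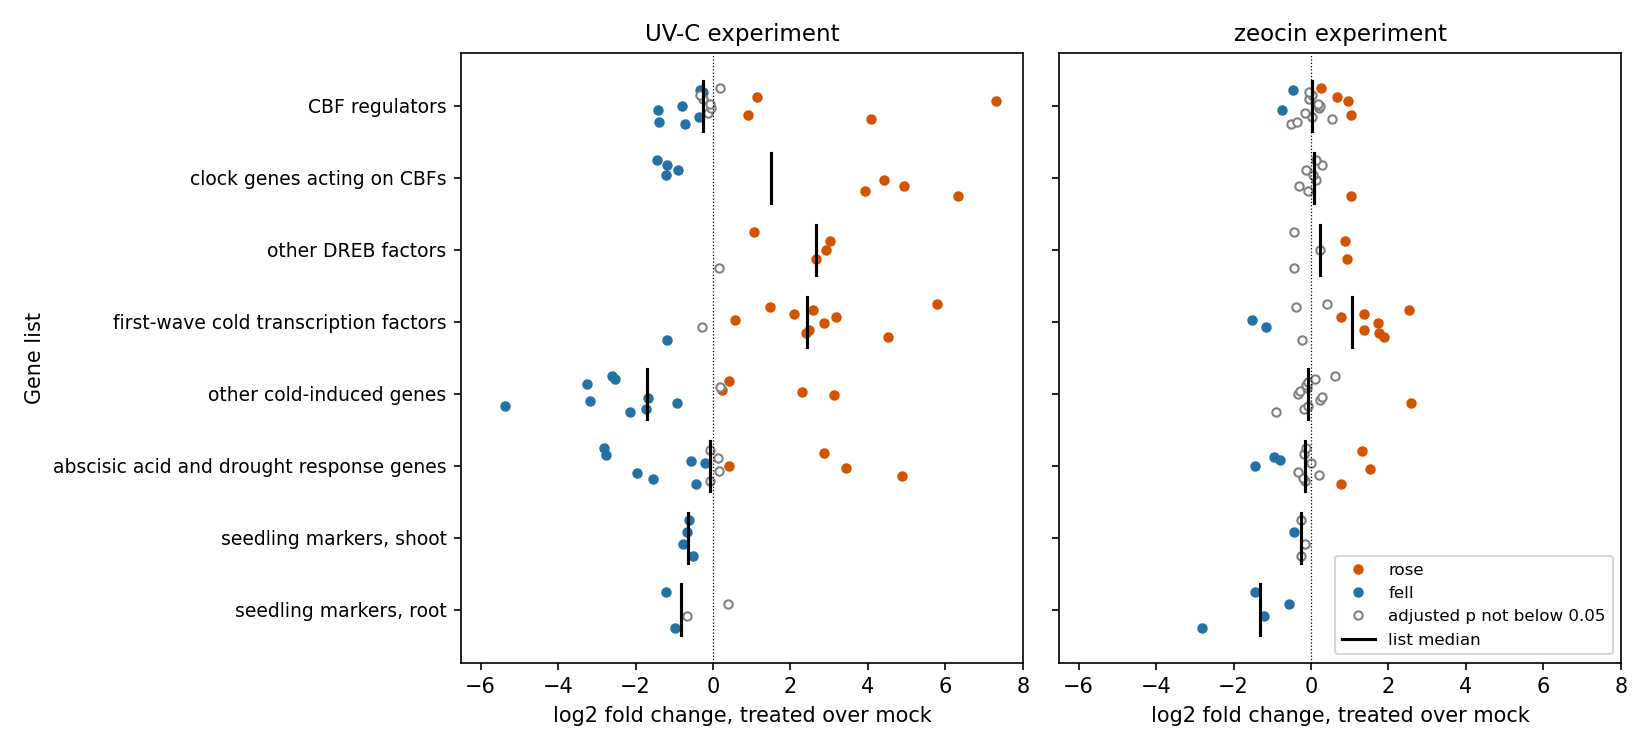
Log2 fold change of treated over mock seedlings for each tested gene of the lists around CBF and COR, in the UV-C experiment (left) and the zeocin experiment (right). Filled points are genes that rose or fell, open points were not called, and vertical bars are list medians. After UV-C the medians are 2.44 for first-wave factors and -1.70 for other cold-induced genes.

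The genes whose pattern was most like that of the COR genes were sought over the 16 libraries, as log2 values centred on the mock mean of each experiment. With the mean of 6 COR genes, the highest Pearson r among 16213 genes were 0.986 for KCS8, 0.986 for KIN2, 0.982 for PATL1, 0.982 for AT3G45850 and 0.981 for DCF. KCS8 had a log2 fold change of -3.12 after UV-C and -0.08 after zeocin, and KIN2, PATL1 and DCF were likewise lower after UV-C by over 2 on that scale. With CBF2 alone the highest were MSD1 at 0.957, followed by AT1G30880, AT1G04480, AT5G64400 and AT3G17120 between 0.932 and 0.927. MSD1, for a mitochondrial superoxide dismutase, had a log2 fold change of 0.37 after UV-C. The libraries of a group share their treatment, and these values are a description with no test.

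Over all loci 55.6% of the zeocin calls were higher in zeocin libraries under TMM scaling and 44.9% under upper quartile scaling. For UV-C the shares were 52.1% and 44.8%, and the median of all loci moved from 0.00 to -0.10 on the log2 scale. Against that shift, the calls on COR15A, COR15B, RD29A, COR47, ERD10 and CBF2 after UV-C were made under both scalings.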

How the data were processed

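The 16 libraries fall into 4 groups, by their titles. Ribosomal RNA was removed and a directional kit kept the strand, per the labels' protocols. The files hold raw counts of fragments per locus, which the authors deposited in a separate table for each experiment. The submitters' processing notes name Trim Galore for trimming, STAR 2.7.1a for alignment and TAIR10 as the build. Per the file headers, loci were assembled with StringTie 2.1.5 without annotation and counted by strand with featureCounts 2.0.1. Multi-mapping fragments were not counted, which can lower the values of near-identical genes.

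Loci were matched to the TAIR10 annotation, where 99.1% (zeocin) and 99.4% (UV-C) of their introns matched exactly. Treated and mock libraries were compared by edgeR 4.0.16 under R 4.3.3, with TMM factors, the default filter on low counts and the quasi-likelihood test, two-sided, Benjamini-Hochberg adjustment over all loci of a table and a call at 0.05. A joint fit over genes with a single-gene locus in both tables gave the difference between responses. The fits were tested on simulated data with changes placed in well-counted loci alone. That test does not cover genes with as few fragments as CBF1 and CBF3. CPM are counts relative to TMM-scaled library size, and CPM per kb are these over locus length. Standard errors derive from the test statistic. Intervals and totals cover counting error only.

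The 10 genes and the other lists were chosen with earlier results of these data known. Named were all 10 genes, KIN2 and CBF4, of each other list up to 4 called genes with the largest change and up to 2 called against its main direction, and the 5 genes most like CBF2 or the COR mean. The likeness to CBF genes uses CBF2 alone and that to COR genes 6 of the 7, since the others were not measured or not tested in both tables. Alternatives were RLE and upper quartile factors, nuclear loci alone, no filter on low counts, single-gene loci, a replicate block, DESeq2 1.42.0 and leaving out each library. Upstream sequences are RefSeq's TAIR10 chromosomes, and coding sequences were aligned globally with Biopython.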

Additional observations from a re-analysis of the deposited data

Results flagged for a closer look

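For 7 genes the response to UV-C differed from the response to zeocin by the interaction term of the joint edgeR fit. The differences, UV-C minus zeocin on the log2 scale, were 2.50 for CBF2, -5.43 for COR15A, -5.72 for COR15B, -4.57 for RD29A, -1.94 for COR47, -1.50 for ERD10 and 0.98 for KIN1. These are the genes tested in both experiments, chosen with the results known, and 47.0% of all genes tested differed by the same rule. The call on KIN1 was lost in 7 of 16 fits that each left out 1 library. COR15B was at 0.676 CPM in zeocin mock libraries and 58.4 CPM in UV-C mock libraries. The experiments also differ in their assembly, and neither this nor the mock level can be told apart from the agent. No library of a zeocin or zeocin mock group stood apart from its group by Dixon's criterion for any of the genes, and groups of 3 were not examined.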

How the results depend on the processing

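The 5 falls after UV-C (COR15A, COR15B, RD29A, COR47, ERD10) and the rise of CBF2 kept their direction and side of the threshold under every alternative run. After zeocin 0 of the genes were called under any alternative, though the direction of COR15B was not kept. The number of the 10 genes risen after UV-C was 1 as reported, 2 with DESeq2 (KIN1 added), 3 with the replicate block (CBF3 and KIN1 added) and 1 to 2 when each library was left out (2 without UV-C mock library 2 or 3 or UV-C library 2). CBF1 was called lower under upper quartile factors. Leaving out each library gave 5 to 6 genes fallen after UV-C, 6 to 7 called in the difference between responses, 4202 to 5520 loci called after zeocin, 11647 to 12124 after UV-C and 7199 to 8397 in the difference. The log2 fold change of COR15B after zeocin, 0.12 as reported, was -0.073 with the replicate block and -0.22 to 0.55 when each library was left out, and none of these was called. The sample titles do not say whether replicate numbers pair the samples, and the main fits did not pair them. The correlation of same-numbered libraries ranged from -0.15 to 0.52 in the zeocin experiment and from -0.33 to 0.19 in the UV-C experiment. Zeocin libraries 1 and 3 were most like the mock library of their own number, and the other treated libraries were not. After zeocin, the call of MYB15 was lost in 8 of 10 fits that left out a library, and those of PIF4 and GLK1 in 7 of 10 each. Over these fits the regulators fallen after zeocin numbered 1 to 2, those risen 2 to 6 and the shoot markers fallen 0 to 3. CBF counts of 5 to 92 fragments per library limit what can be called for those genes.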
